A study of Ovis aries with 2 samples.

Results

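The genes described are 10 genes of Hedgehog signalling and of the notochord: SHH, FOXA2, CHRD, NOTO, PTCH1, SMO, GLI1, GLI2, GLI3 and HHIP. They were chosen by symbol, and all 10 were found, each on 1 of the 26478 features of the gene annotation. Cells with 2 or more of the axial genes SHH, FOXA2, CHRD and NOTO were counted, and the levels of the 6 pathway genes PTCH1, SMO, HHIP, GLI1, GLI2 and GLI3 were measured in cell classes set by marker genes. The feature identifiers include ENSOARG00020022160 for SHH, ENSOARG00020008177 for NOTO, ENSOARG00020002334 for PTCH1 and ENSOARG00020025042 for HHIP.

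The notochord is a rod of mesoderm under the neural tube that patterns the tissues around it, and it grows at its tail end from the node and the tailbud. It makes the secreted protein Sonic hedgehog, which also comes from the floor plate of the neural tube and from the gut lining. In a cell that receives no Hedgehog protein, the receptor PTCH1 keeps the membrane protein SMO inactive. Ligand bound to PTCH1 frees SMO, the GLI transcription factors then switch target genes on, and PTCH1, GLI1 and HHIP are themselves among these targets in many tissues.

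Single-cell RNA was measured in day 16 embryos of 2 sheep breeds, Ujumqin, the control breed, and Hulunbuir Short-tail, named Hulunbuir here. Embryos of each breed were pooled into 1 library, after the extraembryonic tissue had been removed by hand and red blood cells had been lysed. Libraries were made with the 3′ version 3 chemistry of 10x Genomics. The comparison asks how cells of the short-tailed breed differ from those of the control breed, and with 1 library per breed it has no replicates, no test and no p-value, so that breed, pool of embryos and library cannot be told apart.

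The values are counts of unique molecular identifiers (UMIs), which stand for captured RNA molecules. The Ujumqin library held 212933364 UMIs on 17059 barcodes, and the Hulunbuir library held 131385353 on 10709. A barcode was kept as a cell if it had 200 genes or more and less than 10% of its UMIs on mitochondrial genes, 14554 in Ujumqin with a median of 9519 UMIs and 9583 in Hulunbuir with a median of 11879. The libraries had 61 barcodes in common, of which 50 were kept in both. Droplets that held 2 cells were not removed. A level is the UMIs of a gene in a group of cells, given per 1000000 of all UMIs counted there (CPM), and since 3′ counts are not divided by length, the levels of different genes were not compared. All intervals are exact 95% intervals that cover counting error only.

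Each kept cell was assigned to at most 1 of 18 classes, called gates, from the mean level of marker genes over the cell and its 20 nearest neighbours. None of the 10 genes took part in the gates. No gate took 4773 Ujumqin cells (32.8%) and 3575 Hulunbuir cells (37.3%). The libraries held different cells. The erythroid gate had 4693 Ujumqin cells and 0 Hulunbuir cells, and the gate of extraembryonic (ExE) endoderm had 1505 and 15. The caudal progenitor gate, for cells at the tail end of the embryo, had 21 Ujumqin and 587 Hulunbuir cells, and the gate of presomitic mesoderm had 16 and 492. Mesenchyme, the loose connective tissue of the embryo, was large in both, with 2301 and 1832 cells at median depths of 23075 and 16697 UMIs. The leading genes of a gate are the 10 of largest fold over all other kept cells of the library, ungated cells included. In the Ujumqin gates of allantois and of splanchnic and heart field mesoderm, no marker of the gate was among them, so these names rest on less there.

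The axial genes were near the limit of detection. SHH, the ligand itself, had 8 UMIs in 7 Ujumqin cells and 9 UMIs in 8 Hulunbuir cells. FOXA2, a forkhead transcription factor of notochord, floor plate and endoderm, had 7 UMIs in 7 cells and 13 UMIs in 11. CHRD, which encodes chordin, a secreted antagonist of bone morphogenetic proteins, had 4 UMIs in 4 cells and 3 UMIs in 3. NOTO, a homeobox gene of the node and notochord, had 7 UMIs in 2 cells and 13 UMIs in 8. At these counts no difference in level between the libraries was detectable. Outside the erythroid gate the log2 ratio of the Hulunbuir over the Ujumqin level was -0.03 for SHH (interval -1.58 to 1.54), 0.91 for FOXA2 (-0.58 to 2.59), -0.20 for CHRD (-3.10 to 2.70) and 0.69 for NOTO (-0.74 to 2.26), and every interval includes 0. The other Hedgehog ligands were as sparse, with 6 and 2 UMIs of DHH and 5 and 1 UMIs of IHH.

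Cells with 2 or more of the axial genes were rare. The Ujumqin library had 2 of 14554 (0.0137%, interval 0.00166 to 0.0496%) and the Hulunbuir library 3 of 9583 (0.0313%, interval 0.00646 to 0.0915%). The intervals overlap. Cells with at least 1 of the genes numbered 16 and 27. No cell of either library had SHH and FOXA2 together. The pairs seen most were CHRD with NOTO in Ujumqin and FOXA2 with NOTO in Hulunbuir, in 2 cells each.

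**Figure D1:**
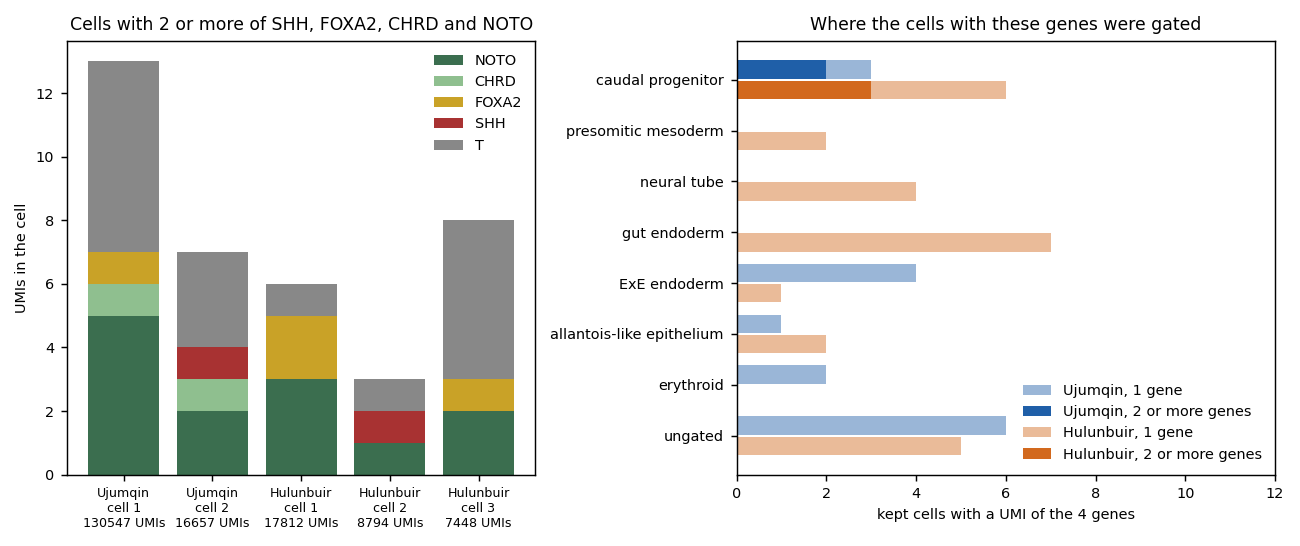
Left, UMIs (vertical axis) of NOTO, CHRD, FOXA2, SHH and T, stacked in each of the 5 cells with 2 or more of SHH, FOXA2, CHRD and NOTO, with the cell's total of UMIs under its name. Right, number of kept cells (horizontal axis) of each gate with 1 of the 4 genes (pale) or 2 or more (dark) in Ujumqin (blue) and Hulunbuir (orange). All 5 cells had NOTO and T, and all 5 were in the caudal progenitor gate.

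All 5 cells were gated as caudal progenitor, and all 5 also had T, the brachyury gene of notochord and tailbud mesoderm, which neither the count nor the gates used. NOTO was the gene they had in common, with 13 UMIs in the 5 cells, against 4 UMIs of FOXA2 in 3 cells and 2 UMIs each of SHH and CHRD in 2 cells. T had 16 UMIs in them. The keratin gene KRT18, common in both libraries, and the epithelial adhesion gene EPCAM had UMIs in all 5, and so did SLIT2, a secreted guidance factor that the fixed list places in axial mesoderm. Other genes of notochord and node were at 0 in the 5 cells: FOXJ1, NOG, NODAL, GSC, CER1 and FOXA1. In the whole libraries GSC had 0 UMIs, NODAL 0 in Ujumqin and 1 in Hulunbuir, and FOXJ1 9 and 2, so little could be found. A 0 allows up to 25.1 CPM in the Ujumqin and 108 CPM in the Hulunbuir cells and so shows no absence. SLIT2 had its highest Hulunbuir level among gates of at least 50 cells in the same caudal gate, at 34.1 CPM, so it does not set these cells apart. The 5 cells thus had NOTO and T in the gate of the tail end.

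The Ujumqin cells had 3 of the 4 axial genes each and the Hulunbuir cells 2. The first Ujumqin cell held 130547 UMIs, 13.7 times the library's median, with 5 UMIs of NOTO, 1 of FOXA2, 1 of CHRD and 6 of T. It also had 37 UMIs of SOX9, 32 of the neural gene SOX2, 26 of the cartilage and notochord collagen gene COL2A1 and 18 of FGF8. Leaving out the cells with the highest Scrublet scores, a measure of likeness to simulated pairs of cells, kept all 5 cells, and the scores cannot tell whether a droplet held several cells of 1 kind. The second Ujumqin cell held 16657 UMIs, with 2 of NOTO, 1 of SHH, 1 of CHRD and 3 of T. The Hulunbuir cells held 17812, 8794 and 7448 UMIs. Their NOTO counts were 3, 1 and 2, and their T counts 1, 1 and 5. FOXA2 had 2 UMIs in the first and 1 in the third, and SHH had 1 in the second. No barcode of the 5 was among those common to both libraries.

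How the cells were counted moved these numbers. With each cell drawn down to 1000 UMIs, 0 cells were left in either library. The 5 cells had 1 to 5 UMIs of each axial gene found, in totals of 7448 to 130547. Such a draw could hardly leave 2 genes in a cell. When 2 UMIs of each gene were asked for, 0 Ujumqin cells and 1 Hulunbuir cell were left, and when 3 of the 4 genes were asked for, 2 and 0. Without the 10% of cells with the largest totals, 1 Ujumqin cell was left. With T counted as a further gene, an alternative added after seeing the data, the Hulunbuir count was 6 and the Ujumqin count 2.

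Of the pathway's response genes, PTCH1 was found in 3 of these 5 cells, with 7 UMIs. Its level in them was 34.0 CPM (11.0 to 79.3) in Ujumqin and 58.7 CPM (7.11 to 212) in Hulunbuir. The Ujumqin level rests on 5 UMIs in 2 cells, 3 of them in the deepest, and the Hulunbuir level on 2 UMIs in 1 cell. Both intervals overlap those of the caudal progenitor gates, 5.26 to 31.2 and 5.01 to 9.07. Beside mesenchyme, the Ujumqin interval is the higher (5.41 to 6.66) and the Hulunbuir interval overlaps (10.7 to 13.1). These intervals leave out the spread between cells, so they do not place the cells above mesenchyme. GLI1 and HHIP had 0 UMIs, which allows up to 25.1 and 108 CPM in the Ujumqin and Hulunbuir cells and so shows no absence. The neighbours of the 5 cells differed by library. Among the 20 nearest cells, 8, 4 and 7 had T around the Hulunbuir cells, and 1 and 1 around the Ujumqin cells. T itself was found in 13 Ujumqin and 106 Hulunbuir cells, at 0.179 CPM (interval 0.109 to 0.276) and 0.956 CPM (0.795 to 1.14) outside the erythroid gate, a log2 ratio of 2.42 (1.73 to 3.18). Within the caudal progenitor gate T stood at 21.5 CPM in Ujumqin (9.82 to 40.8, from 9 UMIs in 2 cells) and at 11.6 CPM in Hulunbuir (9.21 to 14.5, from 80 UMIs), so the intervals overlap there. Most cells with T had none of the 4 axial genes, 11 of 13 in Ujumqin and 100 of 106 in Hulunbuir.

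Beyond the caudal gate, the axial genes were spread over several classes. NOTO kept closest to T: 2 of 2 Ujumqin and 6 of 8 Hulunbuir cells with NOTO had T. Of its UMIs, 7 of 7 in Ujumqin and 8 of 13 in Hulunbuir were in the caudal progenitor gate, where its level was 16.7 CPM (6.72 to 34.4) in Ujumqin and 1.16 CPM (0.501 to 2.29) in Hulunbuir. These intervals do not overlap, but the Ujumqin gate has 21 cells, and its NOTO UMIs come from the 2 cells just described. The other Hulunbuir NOTO UMIs were in presomitic mesoderm (3) and neural tube (2). CHRD had 3 of its 4 Ujumqin UMIs in the caudal gate, and 1 of its 3 Hulunbuir UMIs in the neural tube gate with the other 2 in ungated cells.

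FOXA2 and SHH were found in endoderm and epithelium as well as at the tail end. The Hulunbuir gut endoderm gate, 46 cells and none of its markers among its 10 leading genes, had 4 UMIs of FOXA2 (5.22 CPM, 1.42 to 13.4) and 3 of SHH (3.91 CPM, 0.807 to 11.4), in 7 different cells. SHH had 2 further UMIs in the gate of allantois-like epithelium and 2 in the neural tube gate, and FOXA2 had 4 in the caudal gate. In Ujumqin, whose gut endoderm gate has only 6 cells, FOXA2 had 4 of 7 UMIs in ExE endoderm (0.727 CPM, 0.198 to 1.86), and SHH had 7 of 8 UMIs in 6 cells that no gate took. The 4 axial genes had 0 UMIs in the mesenchyme gates of both libraries, which allows levels up to 0.0612 CPM in Ujumqin and 0.115 CPM in Hulunbuir.

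PTCH1, the receptor and a target of the pathway, was found in many mesodermal classes. It had 507 UMIs in 419 Ujumqin cells and 1165 UMIs in 1003 Hulunbuir cells. Among gates of at least 50 cells, its Ujumqin levels ran from mesenchyme at 6.01 CPM (5.41 to 6.66) over somite at 5.59, allantois at 4.19, splanchnic and heart field mesoderm at 3.82 and intermediate mesoderm at 2.70 to neural tube at 1.56 and endothelium at 1.05 CPM. Allantois-like epithelium, ExE endoderm and erythroid cells followed at 0.813, 0.545 and 0.501 CPM, and cardiomyocytes and megakaryocytes had 0 UMIs. In Hulunbuir the order was splanchnic and heart field mesoderm at 14.9 CPM (12.7 to 17.4), allantois at 13.5, mesenchyme at 11.9 (10.7 to 13.1), neural tube at 11.0, somite at 10.6, surface ectoderm at 8.03, caudal progenitor at 6.82, presomitic mesoderm at 5.65, cardiomyocyte at 2.34, endothelium at 2.15 and intermediate mesoderm at 1.44 CPM (0.528 to 3.13). Each class overlaps the next in its interval in both libraries, so only distant ranks stand apart. Mesenchyme stands clear of erythroid cells in Ujumqin, where the erythroid interval is 0.371 to 0.662 CPM, and clear of endothelium (1.38 to 3.20) and intermediate mesoderm in Hulunbuir.

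HHIP, a membrane protein that binds Hedgehog ligands and holds them back, was more concentrated. It had 1092 UMIs in 644 Ujumqin cells and 651 UMIs in 499 Hulunbuir cells, with up to 9 and 8 UMIs in 1 cell. Ujumqin mesenchyme stood alone at 15.8 CPM (14.8 to 16.9), with no overlap with splanchnic and heart field mesoderm at 9.21 (6.61 to 12.5). Somite at 7.92, neural tube at 5.71, cardiomyocyte at 3.03, allantois at 1.48, endothelium at 1.05, ExE endoderm at 0.545, allantois-like epithelium at 0.407 and erythroid cells at 0.143 CPM followed, and intermediate mesoderm and megakaryocytes had 0 UMIs. In Hulunbuir it was the somite, the segmented mesoderm beside the notochord, that had the highest level, at 16.9 CPM (13.3 to 21.2), with no overlap with mesenchyme at 9.56 (8.52 to 10.7). Cardiomyocyte at 7.02 (2.58 to 15.3, which overlaps somite), splanchnic and heart field mesoderm at 4.31, neural tube at 3.74, allantois at 3.26, surface ectoderm at 2.19, presomitic mesoderm at 2.10, endothelium at 1.08, caudal progenitor at 0.581 and intermediate mesoderm at 0.480 CPM came after. The leading class of HHIP thus differed between the libraries, and the difference itself was not tested.

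**Figure D2:**
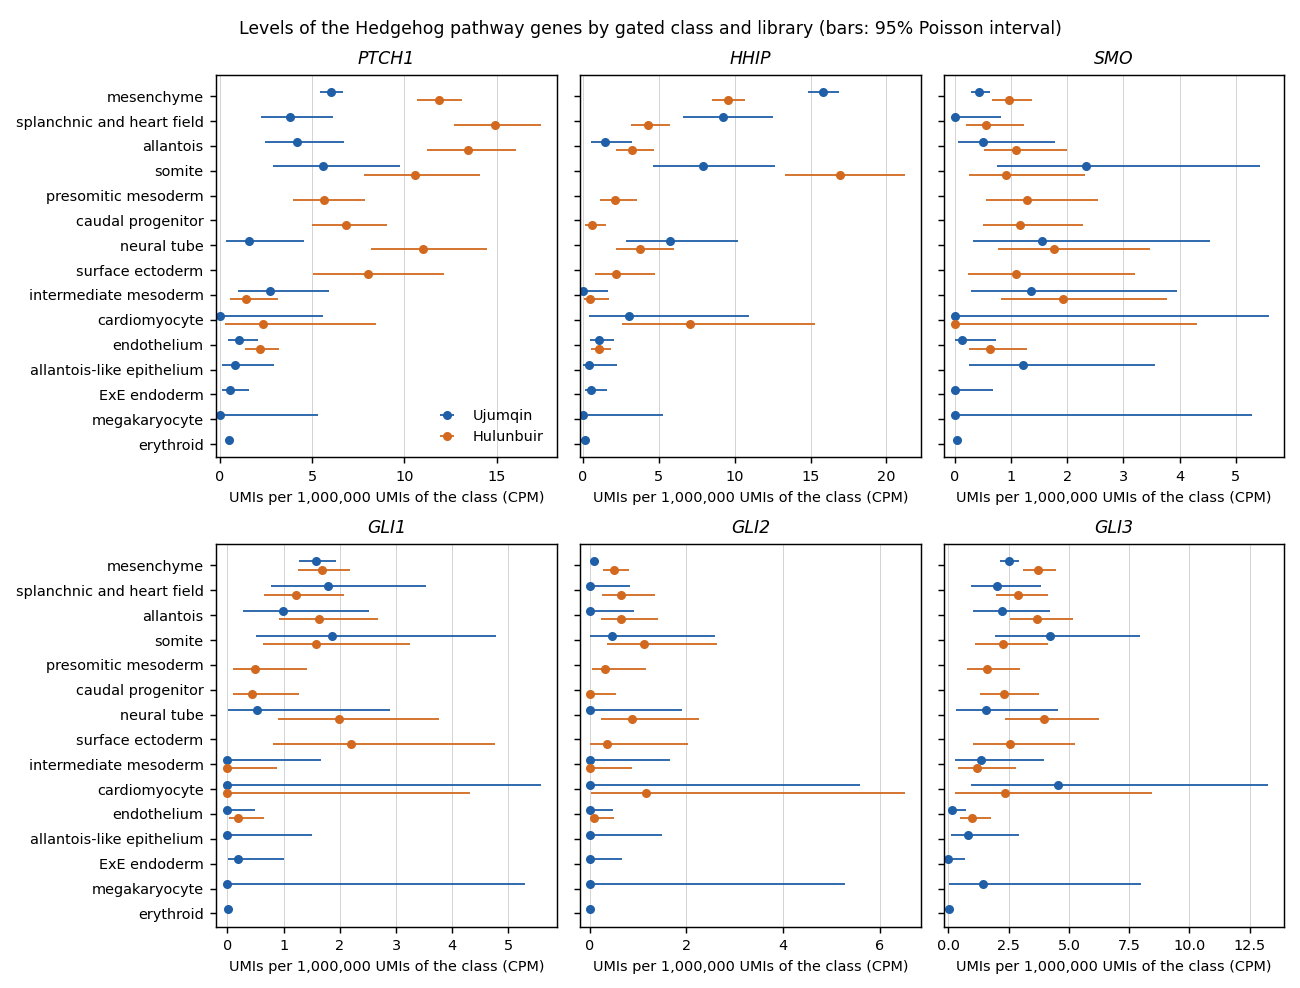
Levels in UMIs per 1000000 UMIs (CPM, horizontal axis) of PTCH1, HHIP, SMO, GLI1, GLI2 and GLI3 in each gate with at least 50 cells (vertical axis), in Ujumqin (blue) and Hulunbuir (orange), with exact 95% Poisson intervals as bars and a different axis for each gene. HHIP led in Ujumqin mesenchyme at 15.8 CPM and in Hulunbuir somite at 16.9 CPM, and PTCH1 was higher in Hulunbuir mesenchyme, at 11.9 against 6.01 CPM.

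Along the axis from tailbud to somite in the Hulunbuir library, HHIP was the response gene whose somite interval lay clear of both other classes. It was 0.581 CPM (0.158 to 1.49) in caudal progenitor cells, 2.10 (1.12 to 3.59) in presomitic mesoderm and 16.9 in somite, and the somite interval overlaps neither of the others. PTCH1 was 6.82, 5.65 and 10.6 CPM in the same classes. Its caudal (5.01 to 9.07), presomitic (3.93 to 7.85) and somite (7.79 to 14.1) intervals overlap, the last 2 only at their edges. Such overlap does not show equal levels, and the PTCH1 differences were not tested. GLI1 was 0.436 (0.0898 to 1.27), 0.484 (0.0998 to 1.41) and 1.58 (0.634 to 3.25), which also overlap. The ratio of PTCH1 to HHIP UMIs was 11.8 in caudal progenitor cells, 2.69 in presomitic mesoderm and 0.627 in somite. The Ujumqin caudal and presomitic gates were too small for these levels, while the ratio in the Ujumqin somite gate was 0.706.

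Mesenchyme held most of the UMIs of HHIP, GLI1, PTCH1 and GLI3 in Ujumqin. The gate had 28.7% of all Ujumqin UMIs, but 87.4% of those of HHIP, 79.2% of those of GLI1, 71.4% of those of PTCH1 and 71.2% of those of GLI3. Part of this excess came from the erythroid gate, which only Ujumqin has. Outside that gate mesenchyme had 53.9% of Ujumqin UMIs, and 88.5% of those of HHIP, 79.8% of those of GLI1, 79.0% of those of PTCH1 and 72.2% of those of GLI3. For SMO its share there was 52%, with no excess over all UMIs. In Hulunbuir it had 25.0% of all UMIs, 47.3% of those of HHIP, 30.9% of those of GLI1, 32.8% of those of PTCH1 and 34.8% of those of GLI3. The other Hulunbuir UMIs were spread over many classes, and ungated cells had 26.0% of all UMIs, 19.7% of those of HHIP, 21.4% of those of PTCH1 and 34.3% of those of GLI1, more than mesenchyme had of GLI1.

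SMO, the signal transducer that PTCH1 restrains, was scarce, and few of its classes stood apart. It had 54 Ujumqin and 125 Hulunbuir UMIs. Its levels in gates of 50 cells ran from 0 to 2.33 CPM in Ujumqin (somite, 5 UMIs) and from 0 to 1.92 CPM in Hulunbuir (intermediate mesoderm, 8 UMIs), with 0.432 (0.282 to 0.632) and 0.962 (0.654 to 1.37) in mesenchyme. All neighbours in its order overlap in both libraries, while Ujumqin somite (0.756 to 5.44) stands clear of mesenchyme, endothelium (up to 0.731) and erythroid cells (0.0111 to 0.105).

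The GLI factors were found in several classes, and their patterns were not tested against each other. GLI1, an activator that is itself a target, had 120 and 175 UMIs. In Ujumqin it stood at 1.86 CPM in somite, 1.80 in splanchnic and heart field mesoderm and 1.58 (1.28 to 1.93) in mesenchyme, against 0 UMIs in endothelium (up to 0.484 CPM) and 0.0102 CPM in erythroid cells. In Hulunbuir it stood at 2.19 CPM in surface ectoderm, 1.98 in neural tube, 1.68 (1.26 to 2.19) in mesenchyme, 1.63 in allantois and 1.58 in somite, against 0.436 in caudal progenitor cells and 0.179 (0.0217 to 0.647) in endothelium. Mesenchyme was thus above endothelium in both libraries, with no overlap.

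GLI3, which acts largely as a repressor when no ligand is present, had 212 and 345 UMIs. It stood at 2.51 CPM (2.12 to 2.94) in Ujumqin and 3.73 CPM (3.09 to 4.45) in Hulunbuir mesenchyme, and at 3.96 (2.35 to 6.26) in Hulunbuir neural tube. Endothelium was lower, at 0.131 (0.00332 to 0.731) and 0.986 CPM (0.492 to 1.76), again with no overlap with mesenchyme. GLI2, the main activator in many tissues, had 8 Ujumqin UMIs, 5 of them in mesenchyme at 0.0830 CPM (0.0270 to 0.194). Its 54 Hulunbuir UMIs ran from 0 to 1.17 CPM across classes, with 0.497 (0.284 to 0.807) in mesenchyme and 1.13 (0.366 to 2.63) in somite.

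Between the libraries, PTCH1 was higher and HHIP lower in Hulunbuir when the cells outside the erythroid gate were pooled. PTCH1 had 4.10 CPM (3.73 to 4.49) in Ujumqin and 9.06 CPM (8.54 to 9.59) in Hulunbuir, a log2 ratio of 1.14 (0.99 to 1.30). HHIP had 9.64 CPM (9.08 to 10.2) and 5.06 CPM (4.68 to 5.46), a log2 ratio of -0.93 (-1.07 to -0.79). The pathway's receptor and its inhibitor, both of them known targets, differed in opposite directions in these pooled levels, but the HHIP value turned to 0.07 in the mean of shared classes and came near 0 under other weightings given below. SMO had 0.447 and 0.972 CPM (1.12, 0.64 to 1.62), GLI2 had 0.0626 and 0.420 CPM (2.74, 1.60 to 4.13), GLI3 had 1.87 and 2.68 CPM (0.52, 0.27 to 0.78), and GLI1 had 1.06 and 1.36 CPM (0.35, 0.01 to 0.70).

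These ratios are to be read against all other genes. The median log2 ratio of the 13249 features with at least 20 UMIs was 0.44, and 21.1% of them were at least 2-fold higher in Hulunbuir, while 5.84% were at least 2-fold lower. Of the 10 genes, 7 had at least 20 UMIs. Of these, 3 (PTCH1, SMO and GLI2) were at least 2-fold higher and 0 were at least 2-fold lower. GLI2, with 7 Ujumqin and 54 Hulunbuir UMIs, reached 20 only through Hulunbuir, so its place among the higher genes was set by that limit. Relative to the median of all features, PTCH1 stood at 0.70, SMO at 0.67, GLI2 at 2.30, GLI3 at 0.08, GLI1 at -0.09 and HHIP at -1.38 on the log2 scale. GLI1 and GLI3 were thus close to the typical gene of these libraries.

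Within mesenchyme, the same directions were seen for PTCH1 and HHIP. PTCH1 had 6.01 CPM in Ujumqin and 11.9 in Hulunbuir (log2 ratio 0.98, 0.77 to 1.19), and HHIP had 15.8 and 9.56 CPM (-0.73, -0.92 to -0.54). Neither pair of level intervals overlaps. SMO was at 1.16 (0.36 to 1.97), GLI2 at 2.58 (1.07 to 4.38), GLI3 at 0.57 (0.21 to 0.93) and GLI1 at 0.09 (-0.42 to 0.59), where GLI1 includes no difference. Of 10940 features with at least 20 UMIs in this gate, 15% were at least 2-fold higher and 4.05% at least 2-fold lower in Hulunbuir, with a median of 0.33. Of the 6 pathway genes, 2 (SMO and GLI2) were at least 2-fold higher and 0 were lower by this limit. SMO fell below the limit with the mean of the cells' CPM, at 0.84, and was at 0.59 in its lowest alternative. GLI2, with 5 Ujumqin and 16 Hulunbuir UMIs, reached 20 UMIs only over both libraries together. Relative to the median, PTCH1 stood at 0.65 and HHIP at -1.06.

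**Figure D3:**
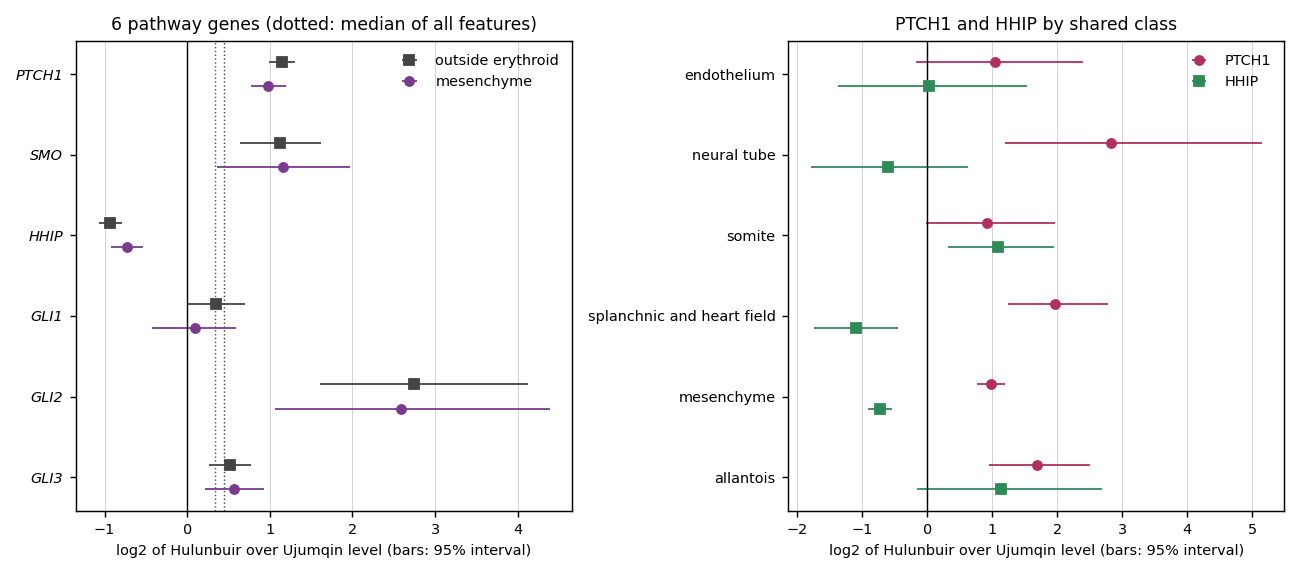
Log2 of the Hulunbuir over the Ujumqin level (horizontal axis), with exact 95% intervals as bars. Left, the 6 pathway genes outside the erythroid gate (squares) and in mesenchyme (circles), with dotted lines at the medians of all features, 0.44 and 0.33. Right, PTCH1 (circles) and HHIP (squares) in 6 of the 8 gates with 50 cells in both libraries, without cardiomyocyte and intermediate mesoderm, where both genes had few UMIs and PTCH1 in the latter was at -0.91. The PTCH1 interval was above 0 in all but somite and endothelium, and the HHIP interval was below 0 in mesenchyme and in splanchnic and heart field mesoderm and above 0 in somite.

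The other classes found in both libraries split the pair further. Gates of 1 name held unlike cells in places: in Ujumqin, ACTA2, GAL and EDNRB were among the 10 leading genes of both splanchnic and heart field mesoderm and allantois, while in Hulunbuir TBX5 and GATA4 were in the former and HOXD13 and TBX4 in the latter. The ratios for these 2 gates therefore set unlike cells against each other, and they enter the mean over shared classes. The neural tube gates shared only SOX2 and STMN2 among their 10 leading genes, and the Ujumqin gate had 3 UMIs of PTCH1 in 2 cells. The intermediate mesoderm gates shared only LHX1 and DLK1, with SST, INS and C1QA among the leading genes in Hulunbuir alone. The neural tube and intermediate mesoderm gates enter the mean over shared classes too. PTCH1 was higher in Hulunbuir in splanchnic and heart field mesoderm (3.82 and 14.9 CPM, 1.96, 1.24 to 2.78), allantois (4.19 and 13.5 CPM, 1.68, 0.95 to 2.51) and neural tube (1.56 and 11.0 CPM, 2.82, 1.19 to 5.15). In somite (0.92, -0.01 to 1.97) and endothelium (1.03, -0.17 to 2.40) its interval includes 0, and in intermediate mesoderm it was lower, with 6 UMIs in each library (-0.91, -2.81 to 0.99). HHIP was lower in splanchnic and heart field mesoderm (9.21 and 4.31 CPM, -1.10, -1.73 to -0.45) but higher in somite (7.92 and 16.9 CPM, 1.09, 0.32 to 1.95). Its intervals include 0 in allantois (1.14, -0.15 to 2.69), neural tube (-0.61, -1.79 to 0.63) and endothelium (0.03, -1.38 to 1.53). The HHIP difference therefore had no single direction across classes, whereas PTCH1 was higher in Hulunbuir wherever its interval left out 0. Of the gates where it did, only mesenchyme had 5 of its markers among the 10 leading genes in both libraries. Those markers also set the gate. Its leading genes still differed, with LGALS3, REG4 and RARRES1 in Ujumqin alone and POSTN, WNT2 and A2M in Hulunbuir alone. Whether the mesenchyme gates held unlike cells too was not tested.

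The HHIP value outside the erythroid gate depended on how cells were weighted. The mean over the 8 shared classes gave 0.07, a change of sign. That mean weights each class alike, and its cardiomyocyte levels, 7.02 CPM in Hulunbuir and 3.03 in Ujumqin, come from 6 and 2 UMIs of HHIP. A value so near 0 therefore gives no direction. The mean of the cells' own CPM gave -0.13, and all kept cells with the erythroid ones included gave -0.04. The median of all features also moved, from 0.44 to 0.68 when the cells' CPM were averaged and to 0.92 with all kept cells, while the shared classes gave 0.36. Relative to these medians HHIP was at -0.29 in the shared classes, -0.81 with the mean of the cells' CPM and -0.96 with all kept cells. PTCH1 stayed above 0, at 1.44, 1.77 and 1.90, and above the median by 1.08, 1.08 and 0.98. Without the 10% of cells with the largest totals, HHIP was at -0.55 and PTCH1 at 1.47.

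The scarcer genes moved as well. SMO was at 0.31 in the mean of shared classes and at 1.91 with all kept cells. In mesenchyme GLI2 was at 3.65 with the cells' CPM averaged and at 3.62 without the largest totals. Outside the erythroid gate GLI2 was at 4.91 with the mean of the cells' CPM, at 4.47 without the largest totals and at 1.90 without the cell filter. In mesenchyme, averaging the cells' own CPM turned the sign of GLI1, to -0.60, and it was at 1.03 without the largest totals, so no direction is given for GLI1 there. Outside the erythroid gate GLI1 was at 1.10 without the largest totals and at 1.25 with all kept cells. GLI3 was at 0.19 in the mean of shared classes, 1.02 with the mean of the cells' CPM and 1.41 with all kept cells. In the mean of shared classes, the cardiomyocyte gate entered with 3 Ujumqin and 2 Hulunbuir UMIs of GLI3. In mesenchyme, PTCH1 was at 1.35 and HHIP at -0.44 with the mean of the cells' CPM.

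**Figure D4:**
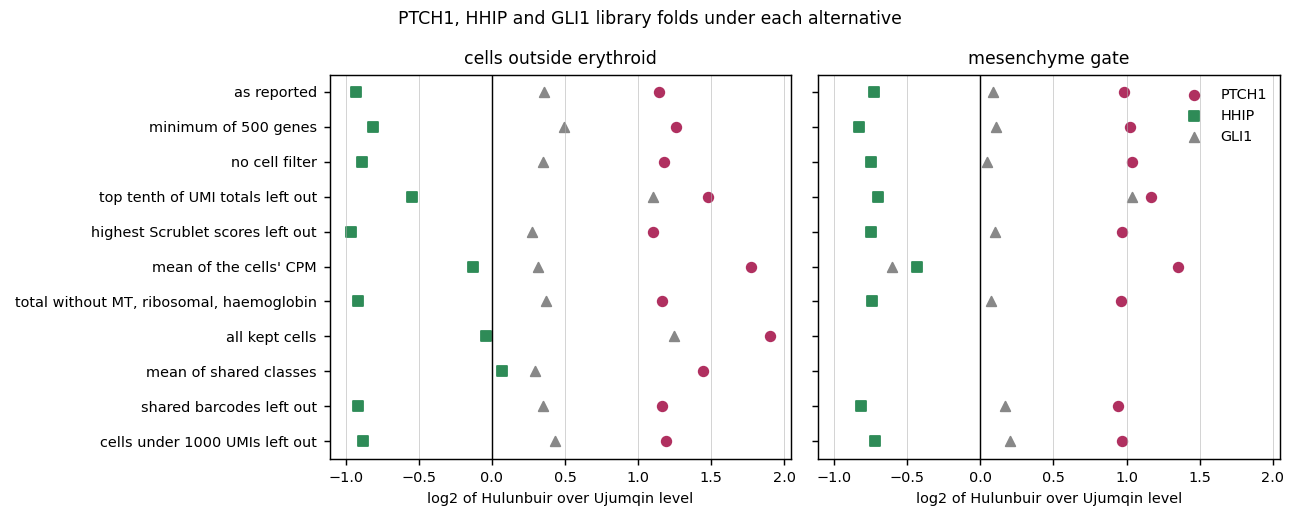
Log2 of the Hulunbuir over the Ujumqin level (horizontal axis) of PTCH1 (circles), HHIP (squares) and GLI1 (triangles) under each way of processing (vertical axis), outside the erythroid gate (left) and in mesenchyme (right), where 2 of the settings do not apply. PTCH1 stayed above 0 at every setting, HHIP reached 0.07 with the mean of shared classes, and GLI1 in mesenchyme ran from -0.60 to 1.03.

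The ratio of PTCH1 to HHIP UMIs within a library needs no scaling by depth. It is read only between groups of cells and does not say which gene had more RNA. Outside the erythroid gate it was 0.425 in Ujumqin and 1.79 in Hulunbuir, on the log2 scale -1.23 (-1.40 to -1.08) and 0.84 (0.70 to 0.98). In mesenchyme it was 0.379 and 1.24, and in splanchnic and heart field mesoderm 0.415 and 3.46, without overlap of the intervals in either class, though the latter gate held unlike cells. In allantois (2.83 and 4.13) and somite (0.706 and 0.627) the intervals overlap, with 17 and 6 UMIs in the Ujumqin allantois gate, which also held unlike cells. Ujumqin erythroid cells had a ratio of 3.50, from 49 UMIs of PTCH1 and 14 of HHIP.

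The share of cells with a UMI of a gene depends on depth, and RNA free in the suspension can add to it. In mesenchyme, 12.5% of Ujumqin and 17.1% of Hulunbuir cells had PTCH1, at median depths of 23075 and 16697 UMIs, while 1.02% of Ujumqin erythroid cells had it at 20791. With each cell drawn down to 1000 UMIs and shallower cells left out (177 and 18 of the mesenchyme cells), the shares were 0.235% (0.0765 to 0.548%) of 2124 and 1.54% (1.03 to 2.22%) of 1814, against 0.0429% (0.0052 to 0.155%) of the Ujumqin erythroid cells. The PTCH1 shares of the mesenchyme gates do not overlap, and at this depth the Ujumqin share overlaps that of erythroid cells. HHIP was in 22.9% and 12.3% of mesenchyme cells, and after thinning in 1.41% (0.955 to 2.01%) and 1.21% (0.762 to 1.83%), which overlap. In erythroid cells HHIP was in 0.298% before thinning and in 0 of 4660 after it, which allows up to 0.0791%.

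In mesenchyme, HHIP also differed in its UMIs per cell that had it. Ujumqin mesenchyme cells with HHIP had 1.81 UMIs of it on average, and 40.6% of them had 2 or more. Hulunbuir cells had 1.37, and 22.7% had 2 or more. PTCH1 differed less, with 1.26 and 1.22 UMIs per cell that had it. The Ujumqin cells were deeper, and the part of depth in these counts was not tested.

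In mesenchyme, PTCH1 and HHIP were each higher in cells with a UMI of the other in both libraries, and PTCH1 was higher in cells with GLI1 in Ujumqin. Cells with GLI1 had PTCH1 at 11.5 CPM and cells without it at 5.58 in Ujumqin, a ratio of 2.06 (1.49 to 2.78). In Hulunbuir the values were 15.1 and 11.7 CPM, a ratio of 1.29 (0.756 to 2.07), whose interval includes no difference. HHIP was higher in cells with PTCH1, at 20.6 against 14.5 CPM in Ujumqin (ratio 1.42, 1.23 to 1.64) and 13.7 against 8.43 CPM in Hulunbuir (1.62, 1.26 to 2.08), and the reverse ratios, of PTCH1 by HHIP, were 1.33 (1.07 to 1.64) and 1.52 (1.18 to 1.94). HHIP did not differ detectably with GLI1, at ratios of 1.03 (0.799 to 1.32) and 1.52 (0.875 to 2.48). Cells with a UMI were deeper, with medians of 41523 against 22525 UMIs for GLI1 in Ujumqin and 20189 against 16580 in Hulunbuir, and the part of depth and of several cells in 1 droplet was not tested.

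A fixed list of 83 pathway, axial and floor plate genes placed the 10 genes among their partners. Of these, 74 were in the annotation, 71 had a UMI and 57 had at least 20 UMIs outside the erythroid gate. By the 2-fold limit, 25 of the 57 were higher in Hulunbuir, 0 were lower and 32 lay between, with a median log2 ratio of 0.84. Without the 10 genes themselves, 22 of 50 were higher (44.0%) and 0 lower, at a median of 0.87, beside 21.1% and 0.44 over all features. Of the higher genes, SCUBE1, BOC, OSR1, FOXF2 and NKX6-1 reached 20 UMIs only with their Hulunbuir counts. The same limit was set for all features. In mesenchyme 9 of 43 were higher (20.9%) and 4 lower (9.30%), at a median of 0.68, beside 15% and 4.05%, so within that gate the share of higher genes was nearer to that of all features. Neural tube was near it too, at 17.4% beside 16.9%. In the other shared gates the share of higher list genes stayed above that of all features: splanchnic and heart field mesoderm 45.2% beside 17.8%, intermediate mesoderm 40.7% beside 14%, endothelium 36.7% beside 19.2%, allantois 37.9% beside 22.5%, somite 26.9% beside 11.1% and cardiomyocyte 45.5% beside 27.8%. These shares rest on few genes: 14 of 31, 11 of 27, 11 of 30, 11 of 29, 7 of 26 and 5 of 11 in the same order. Lower list genes also exceeded all features in allantois (10.3% beside 4.39%) and in splanchnic and heart field mesoderm (6.45% beside 4.07%). Somite (3.85% beside 2.3%) and intermediate mesoderm (3.7% beside 2.86%) had 1 lower list gene each, and endothelium and cardiomyocyte had 0. The gates of splanchnic and heart field mesoderm, allantois and intermediate mesoderm held unlike cells. In intermediate mesoderm the list median was 0.23 beside 0.18. Cells of the tail end and neural tube made up more of the Hulunbuir library, and their part in the list's values outside the erythroid gate was not tested.

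Genes that release or present the ligand were few, and most were higher in Hulunbuir outside the erythroid gate. Of 4 ligand release genes with enough UMIs, 3 were at least 2-fold higher, at a median of 1.84, beside 21.1% and 0.44 for all features. Among the 3 was SCUBE1, at 0.0805 and 0.513 CPM (2.67), which had enough UMIs only with its Hulunbuir counts. DISP1, which exports Hedgehog proteins from the cell, was at 1.78 and 2.24 CPM (0.33). SCUBE2, a secreted helper of release, was at 0.555 and 1.24 CPM (1.16), with 23.1 CPM in Hulunbuir neural tube, and SCUBE3 was at 0.179 and 1.03 CPM (2.53). Of 4 co-receptors 3 were higher, and of these BOC, at 0.152 and 0.738 CPM (2.28), had enough UMIs only with its Hulunbuir counts. GPC3, a glypican, was at 12.2 and 26.4 CPM (1.11) and CDON at 0.465 and 0.933 (1.00), while LRP2 was at 3.32 and 1.86 (-0.84) with its Ujumqin peak of 48.0 CPM in ExE endoderm. Within mesenchyme the sign turned for SCUBE2 (-0.68) and LRP2 (0.96), so their directions depend on the cells compared.

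The inner machinery of the pathway differed about as much as other genes. Of 14 cytoplasmic regulators 3 were at least 2-fold higher, a share near the 21.1% of all features, at a median of 0.54 beside 0.44. The kinase genes GSK3B, CSNK1A1 and GRK2 were at -0.04, 0.06 and -0.16. Of 6 genes of the primary cilium, the antenna in which the signal is received, 0 passed the limit, at a median of 0.67, with KIF3A at 38.6 and 62.7 CPM (0.70) and IFT88 at 11.7 and 18.3 (0.64).

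Outside the erythroid gate, genes known as Hedgehog targets in some tissue were at least 2-fold higher in 6 of 9 cases, PTCH1 among them, at a median of 1.14, beside 21.1% and 0.44 for all features. Of these higher targets, OSR1, FOXF2 and NKX6-1 had enough UMIs only with their Hulunbuir counts. Within mesenchyme only BMP4 (1.24) of the 6 targets with enough UMIs passed that limit. FOXF1, a target in the mesenchyme of the gut and its surroundings, was at 4.27 and 9.25 CPM (1.12). Its highest gates of at least 50 cells were those of PTCH1 in each library, mesenchyme at 6.81 CPM in Ujumqin and splanchnic and heart field mesoderm at 16.8 CPM in Hulunbuir. CCND1, a cell cycle gene, was at 49.0 and 91.6 CPM (0.90), and BMP4, a signalling gene with many other inputs, at 10.5 and 39.6 (1.91). Of 13 axial mesoderm genes 7 were higher, at a median of 1.12, again beside 21.1% and 0.44. They were KRT18, KRT8, COL2A1, CER1, HHEX, T and NOG, and most are not particular to the notochord here. In Hulunbuir CER1 peaked in somite (169 CPM), HHEX in endothelium (29.0 CPM), COL2A1 in cardiomyocytes and both keratin genes in surface ectoderm. NOTO, at 0.69, did not pass the limit, and SHH, FOXA2 and CHRD had too few UMIs. In mesenchyme the sign turned for CER1 (3.31 to -1.71) and SLIT2 (0.56 to -0.48), and CAV1 went from -0.92 to -1.75. The most abundant of the 13 were keratin genes that other epithelia also express: KRT18 at 1188 and 2947 CPM (1.31), KRT19 at 1256 and 2397 (0.93) and KRT8 at 72.1 and 221 (1.61). Of 3 floor plate genes 1 was higher: SULF1 was at 2.60 and 6.93 CPM (1.41), SPON1 at 2.47 and 1.93 (-0.36) and NTN1 at 1.04 and 1.47 (0.50), the last with its peak in somite in both libraries (25.2 and 25.5 CPM). In mesenchyme NTN1 turned to -2.68 and SPON1 was at -1.29, so these groups have no single direction across cells.

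**Figure D5:**
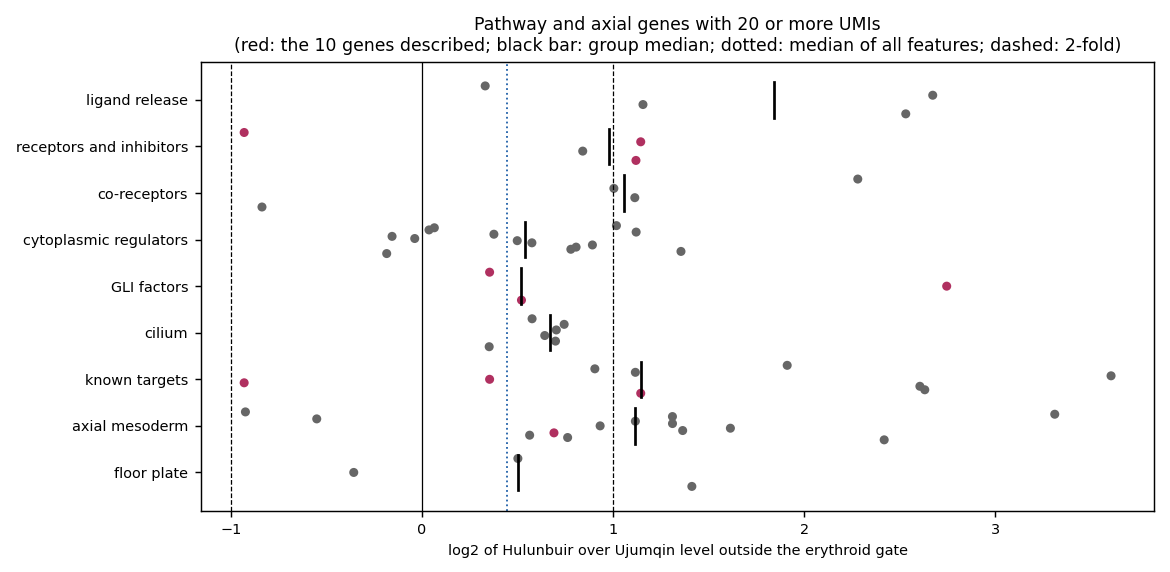
Log2 of the Hulunbuir over the Ujumqin level outside the erythroid gate (horizontal axis) for genes of the fixed list with at least 20 UMIs, by group (vertical axis), with genes in 2 groups drawn in each. Red points are among the 10 genes, black bars are group medians, the dotted line is the median of all features (0.44) and dashed lines mark 2-fold. HHIP lies at -0.93 beside PTCH1 at 1.14, and no cilium gene passes the 2-fold limit.

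The 6 pathway genes were compared across 23 points, the gates with at least 50 cells of either library, by Pearson's r of log2(CPM + 1). The points share 2 libraries and differ in depth, so r is a description. PTCH1 went most with GLI1 (r = 0.83), GLI1 with PTCH1 and then HHIP (0.70), and PTCH1 with HHIP less (0.56). SMO went least with HHIP (0.08). Among 4072 genes with at least 20 CPM in some point, those most like PTCH1 were SLC16A1 (0.90), MSH3 (0.89), IFT88 (0.88), POLE2 (0.88) and GXYLT1 (0.88). Those most like GLI1 were TLN2 (0.73), TCF12 (0.73), COL11A1 (0.72), CCSAP (0.70) and CEP44 (0.70), and 2 of the 5 genes of either list were kept with Spearman's rank correlation. The genes most like HHIP, a list added after its values were seen, were TWIST1 (0.83), EDNRA (0.77), EPB41L3 (0.76), TCF12 (0.75) and COL5A2 (0.74). The lists for SHH (HES3, PAX6, SCUBE2, CDH6 and SOX2, r from 0.68 to 0.86) and FOXA2 (AMBP, FGB, CDHR5, ARHGAP9 and GALNT12, 0.68 to 0.70) rest on 3 and 12 UMIs in 2 and 5 of the points and are no finding.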

How the data were processed

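The authors deposited counts of UMIs on each gene and cell barcode, made with Cell Ranger (5.0.0 in the matrix header, 3.1.0 in the submitters' notes) on the rambouillet_v1.0 assembly and not normalized. Embryos of each breed were pooled into 1 library. A symbol on several features was taken at its first feature.

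Kept cells had 200 genes or more and less than 10% of UMIs on mitochondrial genes. For the gates, 2000 variable genes without the 74 genes of the fixed list found in the files gave 30 principal components. Levels scaled to 10000 UMIs were log-transformed and averaged over a cell and its 20 nearest neighbours. Each marker was standardized over cells and counted if found in at least 3 of these cells. The gate was the list of highest mean score above 0.5 with at least 3 markers. This scoring rule was set after the data were seen, and 2230 Ujumqin and 1319 Hulunbuir cells scored within 0.1 of the limit. The 10 genes and all lists were chosen with earlier results of these data known.

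Levels have exact Poisson intervals, ratios the exact interval of 2 Poisson counts given the totals, and shares exact binomial (Clopper-Pearson) intervals. For the 2-fold counts, a library at 0 was set to 3 counts. Genes named are the 10 genes, up to 3 of high level in each group of the list, with others where a count or group called for them, and the 5 of most similar pattern to SHH, FOXA2, PTCH1 and GLI1. The axial markers described in the 5 cells, the HHIP list and the comparisons by GLI1 and PTCH1 were chosen after values were seen.

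Alternatives were 500 genes, no cell filter, the 10% of cells with the largest totals or the highest Scrublet scores left out (1986 and 821 cells, the expected 13.6% and 8.57%), averaged CPM of single cells, totals that leave out 75 genes (mitochondrial, haemoglobin and those of ribosomal proteins), all kept cells, the mean of shared classes, 1 marker more or fewer, other limits and thinning depths, Spearman correlation and a pseudocount of 10 CPM. Only the ratios between libraries and the gates were tried on simulated data. The ratios were drawn as pooled counts, and the gates from the mean profile of each Hulunbuir gate. Neither had spread between cells beyond depth and counting error. The scripts used scanpy 1.11.5, matplotlib 3.10.9, scikit-learn 1.9.0, pandas 2.3.3, scipy 1.17.1, numpy 2.4.6 and Python 3.11.15.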

Additional observations from a re-analysis of the deposited data

How the results depend on the processing

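Over 52 results, 357 values were recomputed: 277 stayed within counting error or within 1.5 times of a count, 78 moved beyond it and 2 changed sign. The PTCH1 ratio stayed positive at all settings, from 1.10 to 1.90 outside the erythroid gate and from 0.94 to 1.35 in mesenchyme, and HHIP in mesenchyme stayed negative, from -0.83 to -0.44. With cells thinned to 1000 UMIs, the shares of mesenchyme cells with HHIP, 1.41% and 1.21%, overlapped in their intervals. Outside the erythroid gate HHIP ran from -0.97 to 0.07.

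Averaged over the CPM of single cells, PTCH1 was 1.77 and HHIP -0.13 outside the erythroid gate, and PTCH1 was 1.35, HHIP -0.44 and GLI1 -0.60 in mesenchyme. All kept cells gave 1.90 for PTCH1 and -0.0423 for HHIP, the mean of shared classes 1.44 and 0.0676, and leaving out the largest 10% of totals 1.47 and -0.55. The cause was not tested.

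Cells with 2 or more axial genes numbered 1 in Ujumqin without the largest 10% of totals, 0 in Ujumqin and 1 in Hulunbuir with 2 UMIs required, 0 in both when thinned to 1000 UMIs, 0 in Hulunbuir with 3 genes required, and 6 in Hulunbuir with T added. A 4-fold limit gave 609 features higher and 393 lower outside the erythroid gate, 260 and 184 in mesenchyme, and 8 list genes higher. A minimum of 100 UMIs gave 1822 and 441, and 871 and 216. Without the largest 10% of totals, or without the highest Scrublet scores, 1 list gene was lower. The stricter limits leave fewer features, and the thinning fewer cells, by construction.

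Leaving out shared barcodes, leaving out cells under 1000 UMIs and counting T were added after seeing the data. Counts were lowest for the axial genes, at 3 to 13 UMIs per library, and for GLI2 in Ujumqin, at 8. With 1 pooled library per breed, breed, pool and library cannot be told apart. The gates were not compared with other labels, and gates under 50 cells were left out of the orders of levels.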
